A study of Mus musculus with 4 samples.

Results

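Fatty acid and lipid storage genes are 43 genes that take fatty acids through the cell, from synthesis and desaturation to storage, uptake and oxidation. They were taken by name. A gene is represented by the array row whose annotation gives its symbol and no other, and by the row with the highest mean where there were several. 41 of the 43 had such a row, out of 19938 genes tested, and Acsl1 and Acsl3 were not analysed here. The samples were cultured primary lung fibroblasts of mice aged 3 to 4 weeks, the cells that grow out of collagenase-digested lung, kept in medium with 20% serum and left untreated. 2 samples, A and B, came from line 493 with the genotype labelled KrasD12. The 2 wild-type (WT) samples, A and B, came from line 494. With 1 line per genotype, line and genotype cannot be told apart. The sources used here do not say which cells carry the KrasD12 allele, whether a recombinase switched it on or whether A and B were separate cultures. Every p-value below thus reflects only how far A and B differed within a line, with each gene's spread drawn toward that of all genes. That spread could be technical.

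Fatty acids are built in the cytosol from acetyl-CoA and NADPH, extended and desaturated in the endoplasmic reticulum, esterified to triglyceride and kept in lipid droplets, or burned in mitochondria. SREBP-1, the product of Srebf1, is a membrane-bound transcription factor that, once cut and released, switches on much of the synthesis and desaturation programme. In the lung, some fibroblasts hold lipid droplets and are thought to pass lipid to the type 2 epithelial cells that make surfactant.

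The deposited values are log2 expression values. Here a gene rose or fell where limma's adjusted p was under 0.05 in 1 direction both as deposited and once the 4 columns were quantile-normalized, since the columns of the groups did not share 1 distribution: their medians were 6.24 and 6.26 in KrasD12 and 5.90 and 5.91 in WT. The median difference over all genes, KrasD12 minus WT, was 0.26 as deposited and -0.0038 once quantile-normalized. Over all genes Pearson's r was 0.997 and 0.998 between samples of a group and 0.972 to 0.974 between groups. Dim genes were those under 5.15, the 95th percentile of the means of 1212 olfactory and vomeronasal receptor rows. Of 10 fibroblast markers, all above that level, 2 rose (Fn1 by 0.44 and Pdgfra by 0.26) and 3 fell (Col1a1 by 0.60, Pdgfrb by 0.50 and Thy1 by 0.31), with list means per sample of 11.24 to 11.35 (log2). Over all genes 22.4% rose and 11.5% fell.

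Most genes that make, desaturate and elongate fatty acids were lower in KrasD12 fibroblasts. Of 11 storage and lipolysis genes 9 were not called, as were 13181 of all 19938 genes. Of the 41 members, 21 fell (51.2%) and 2 rose (4.88%), against 11.5% and 22.4% of all genes tested. Among all genes with a mean above the dim level 15.1% fell and 24.5% rose. All 8 desaturation and elongation genes fell, as did 5 of 7 synthesis genes, 5 of 8 measured genes of uptake, binding and activation, and 3 of 7 oxidation genes. Among 11 storage and lipolysis genes 0 fell and 2 rose (18.2%, under the 22.4% of all genes). Of the 21, 6 fell at least 2-fold on both scalings (Dbi, Acss2, Fads3, Me1, Fabp5 and Elovl6), a size and call reached by 1.26% of all genes. The groups did not overlap in 35 of the 41 members, against 83% of all genes, so that count says little about the members. With KrasD12 A left out 16 of the 21 kept their call and with KrasD12 B left out 12, and the 2 rises were lost in both. Scd2, Fads1, Elovl1, Lpl and Acadm lost their falls in both cases, and Scd1, Acsl4, Hadha and Hadhb without KrasD12 B. Leaving out either WT sample, which leaves 1 in that group, limma called no gene at all. The 23 called members kept their sign there. Their differences were 0.736 to 1.14 times the full ones without WT A. Without WT B they were 0.863 to 1.26 times as large.

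**Figure D1:**
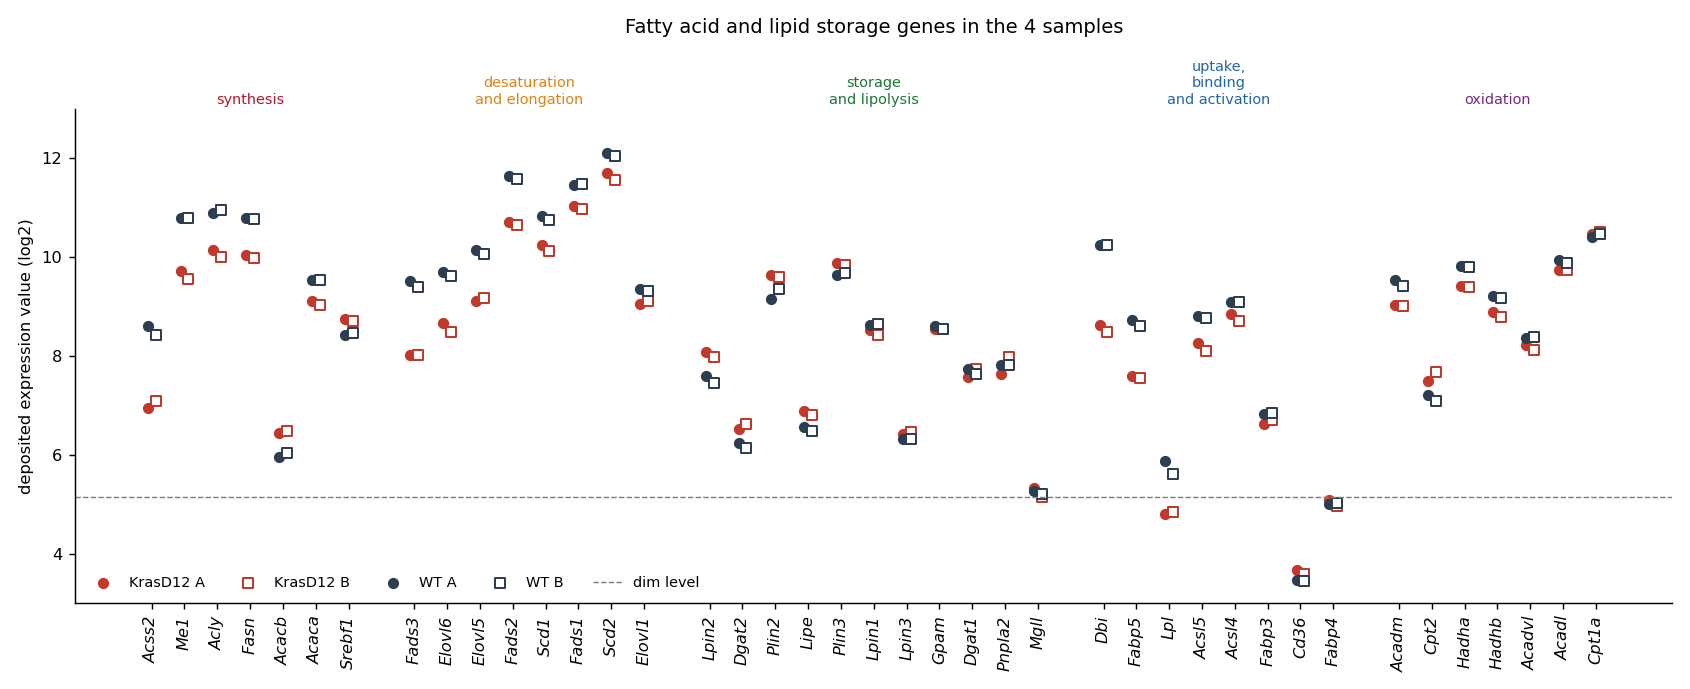
Deposited expression values (log2, vertical axis) of the 41 measured genes in each of the 4 samples, red for KrasD12 and dark blue for WT, filled circles for A and open squares for B; the dashed line is the dim level of 5.15. All 8 desaturation and elongation genes lie lower in both KrasD12 samples, whereas storage genes lie close together or slightly higher in KrasD12.

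The synthesis genes supply acetyl-CoA, NADPH and malonyl-CoA and join them into palmitate. Acss2, which makes acetyl-CoA from acetate, stood at 6.95 and 7.09 in KrasD12 A and B and at 8.60 and 8.43 in WT A and B. It fell by 1.495 ± 0.09 log2 units (each ± is a moderated SE from limma, with n = 2 in each group, adjusted p = 0.000529), to 0.355 times the WT level. Both KrasD12 samples lay well under both WT samples. Me1, the cytosolic malic enzyme that yields NADPH, read 9.72 and 9.55 in KrasD12 and 10.80 and 10.79 in WT and fell by 1.16 ± 0.08 (adjusted p = 0.000682). Acly, which splits citrate into acetyl-CoA, read 10.14 and 10.00 against 10.89 and 10.95 and fell by 0.85 ± 0.08 (adjusted p = 0.00109). Neither gene's groups overlapped, and the gaps between A and B, at most 0.17, were far smaller than the group differences. Fasn, the fatty acid synthase, read 10.05 and 9.99 in KrasD12 and 10.79 and 10.78 in WT and fell by 0.77 ± 0.07 (adjusted p = 0.000952), to 0.588 times the WT level. Acaca, the cytosolic acetyl-CoA carboxylase that makes malonyl-CoA, fell by 0.46 ± 0.07 (adjusted p = 0.00369).

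The remaining synthesis genes did not go the same way. Srebf1 stood at 8.74 and 8.71 in KrasD12 and at 8.42 and 8.47 in WT, a difference of 0.28 ± 0.07 as deposited (adjusted p = 0.0156) that quantile normalization reduced to 0.17 (adjusted p = 0.102), so it was not called. Its sign turned under median centring (-0.07, adjusted p = 0.484), so no direction is given for the transcript of the regulator. Acacb, the carboxylase on the mitochondrial membrane whose malonyl-CoA restrains fatty acid entry, differed by 0.48 ± 0.07 deposited and 0.14 after quantile normalization (adjusted p = 0.156). The median difference of the 7 genes was -0.77 deposited and -0.74 after quantile normalization. For scale, genes whose mean lay within 0.5 of that of Acss2 had a median difference of 0.20, and those around Fasn one of -0.01.

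The promoters of Acss2 and Fasn are shown because Acss2 had the largest fall of the role and Fasn is its central enzyme. Both windows, from RefSeq (GRCm38.p6), run from 250 bases before to 50 after the start, 5′ to 3′ on the gene's strand, and capitals mark NF-Y boxes, CCAAT or its reverse complement.
Acss2 (chr2:155517793-155518092, plus strand): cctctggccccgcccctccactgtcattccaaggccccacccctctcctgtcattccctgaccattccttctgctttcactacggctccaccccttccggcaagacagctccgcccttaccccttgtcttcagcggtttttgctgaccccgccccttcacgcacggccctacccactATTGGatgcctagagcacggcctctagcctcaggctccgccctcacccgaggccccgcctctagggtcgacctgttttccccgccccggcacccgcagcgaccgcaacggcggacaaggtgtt
Fasn (chr11:120824498-120824797, minus strand): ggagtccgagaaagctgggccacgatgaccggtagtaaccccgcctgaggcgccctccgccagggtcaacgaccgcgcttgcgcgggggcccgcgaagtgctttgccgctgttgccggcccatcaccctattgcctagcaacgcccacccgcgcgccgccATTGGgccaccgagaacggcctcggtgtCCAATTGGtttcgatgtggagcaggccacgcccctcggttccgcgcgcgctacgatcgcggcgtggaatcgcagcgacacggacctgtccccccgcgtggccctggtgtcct
Acss2 has 1 box, whose first base is at -73 from the start, on the opposite strand. Fasn has 3, at -90, -62 and -59, the last of which overlaps its neighbour.

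Desaturation and elongation was the role in which every gene fell. Fads3, a member of the fatty acid desaturase cluster, stood at 8.01 and 8.02 in KrasD12 and at 9.51 and 9.40 in WT and fell by 1.44 ± 0.07 (adjusted p = 0.000361), to 0.369 times the WT level. Its neighbour Fads2, a desaturase of polyunsaturated fatty acids, read 10.71 and 10.66 against 11.64 and 11.59 and fell by 0.93 ± 0.07 (adjusted p = 0.0007). In neither gene did the groups overlap. Fads1, the other polyunsaturated desaturase, which lies next to Fads2 on chromosome 19, fell by 0.47 ± 0.07 (adjusted p = 0.00319). The 3 neighbours thus fell by different amounts, and their differences kept the order Fads3, Fads2, Fads1 after quantile normalization (-1.56, -0.82 and -0.35).

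The elongases add carbon units to the chain. Elovl6, which lengthens saturated and monounsaturated chains, read 8.67 and 8.48 in KrasD12 and 9.69 and 9.62 in WT and fell by 1.08 ± 0.09 (adjusted p = 0.000855). Elovl5, which acts on polyunsaturated chains, read 9.12 and 9.17 against 10.14 and 10.07 and fell by 0.96 ± 0.07 (adjusted p = 0.000685). Both stood roughly a log2 unit lower in each KrasD12 sample. Elovl1, an elongase of very long chains, fell by 0.26 ± 0.07 (adjusted p = 0.0235), the smallest fall among the members as deposited (after quantile normalization that of Scd2 was smaller), and it was no longer called with A and B as a block (adjusted p = 0.0565, the larger of the scalings).

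Stearoyl-CoA desaturases place the double bond of monounsaturated fatty acids. Scd1 read 10.25 and 10.12 in KrasD12 and 10.83 and 10.75 in WT and fell by 0.61 ± 0.08 (adjusted p = 0.00245). Scd2 read 11.70 and 11.57 against 12.10 and 12.05 and fell by 0.44 ± 0.08 (adjusted p = 0.00577), but by 0.27 after quantile normalization (adjusted p = 0.0328). The groups did not overlap in either. Their paralogs Scd3 and Scd4 stayed under the dim level in all 4 samples and did not pass on both scalings. After quantile normalization alone both were called lower (-0.49 and -0.57, limma's adjusted p = 0.00332 and 0.00407). The probe sequences were not used here, so how far transcripts of such close relatives bind each other's probes was not assessed. Over the 8 genes of this role the median difference was -0.77 deposited and -0.69 after quantile normalization, and leaving out each sample in turn gave medians of -0.80 to -0.72.

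The promoter of Fads3, the gene with the largest fall of this role, holds 2 NF-Y boxes in capitals, at -106 from the start on the gene's strand and at -78 on the other.
Fads3 (chr19:10041298-10041597, plus strand): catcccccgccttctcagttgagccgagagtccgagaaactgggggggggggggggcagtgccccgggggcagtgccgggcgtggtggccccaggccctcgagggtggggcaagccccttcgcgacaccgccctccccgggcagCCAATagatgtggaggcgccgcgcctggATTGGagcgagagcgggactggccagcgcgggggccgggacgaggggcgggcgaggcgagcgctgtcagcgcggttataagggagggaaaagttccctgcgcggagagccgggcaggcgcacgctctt

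**Figure D2:**
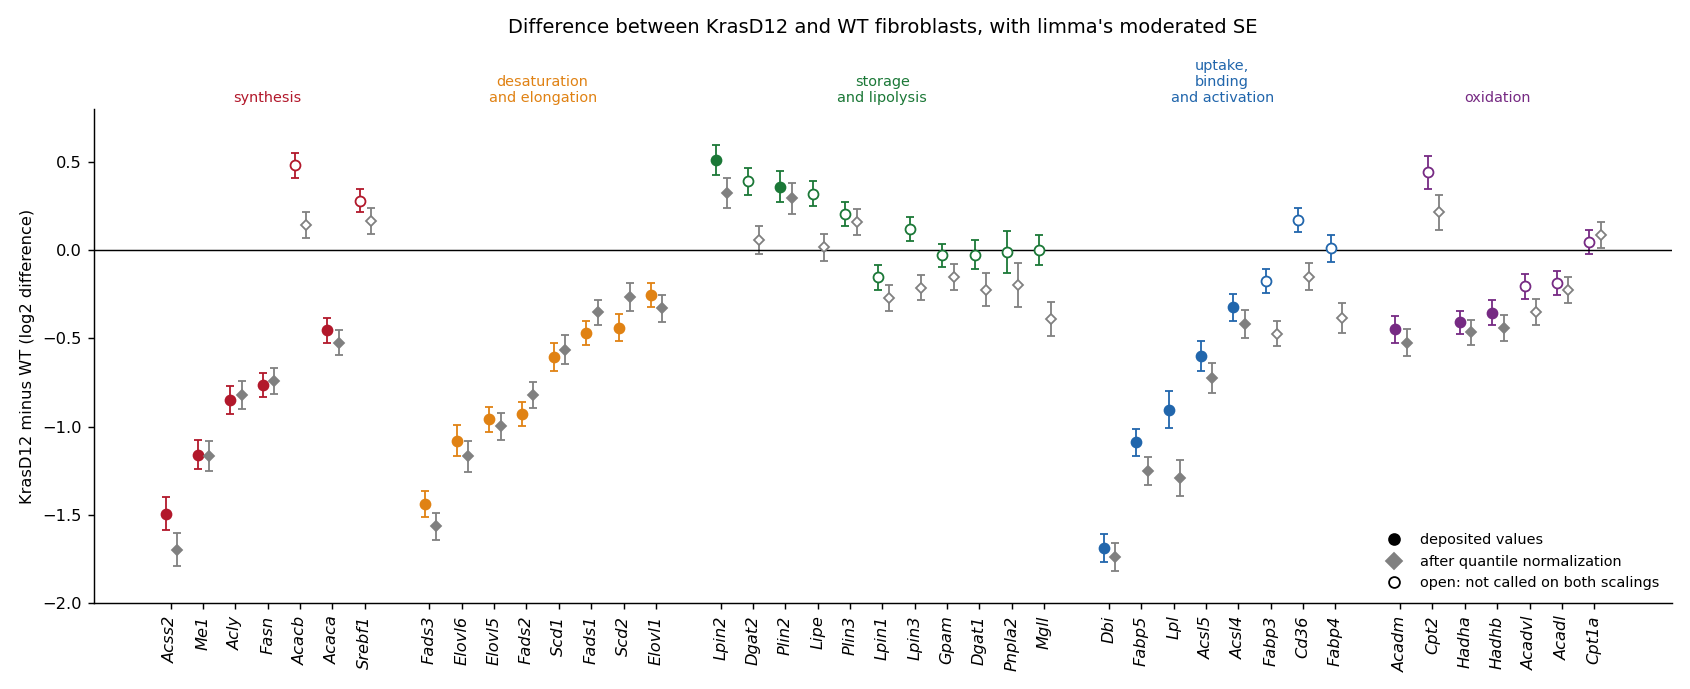
Difference between KrasD12 and WT (log2, vertical axis) of each of the 41 genes by role, as coloured circles for deposited values and grey diamonds after quantile normalization, with bars of 1 moderated SE; open symbols are genes not called on both scalings. Synthesis, desaturation and elongation genes run down to -1.495 and -1.44, and storage genes lie between -0.16 and 0.51 on the deposited values.

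Storage and lipolysis genes make triglyceride, coat the droplet or break its lipid down again. Lpin2, a phosphatidate phosphatase on the way to triglyceride, stood at 8.09 and 7.97 in KrasD12 and at 7.59 and 7.45 in WT and rose by 0.51 ± 0.09 (adjusted p = 0.00499), or by 0.32 after quantile normalization (adjusted p = 0.0211). Plin2, a coat protein of lipid droplets, read 9.63 and 9.60 in KrasD12 and 9.16 and 9.35 in WT and rose by 0.36 ± 0.09 (adjusted p = 0.0164). The groups of both genes were apart, though those of Plin2 only by 0.25 between WT B and the nearest KrasD12 sample. With A and B as a block Plin2 was not called (adjusted p = 0.0534, again the larger of the scalings). Both rises also lost their calls with either KrasD12 sample left out, and both lost them after centring the columns on their medians.

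The other storage genes were not called on both scalings. The acyltransferase Dgat2, which completes triglyceride, differed by 0.39, the hormone-sensitive lipase gene Lipe by 0.32 and the droplet protein gene Plin3 by 0.21, each called on the deposited values only (0.06, 0.02 and 0.16 after quantile normalization). Gpam, the mitochondrial acyltransferase that starts glycerolipid synthesis, read 8.54 and 8.55 in KrasD12 and 8.60 and 8.55 in WT, a difference of -0.03 ± 0.07 (adjusted p = 0.71). Dgat1 (-0.03), the lipase gene Pnpla2 (-0.01) and Mgll (0.00), which releases the last fatty acid, were as close on the deposited values, with Pnpla2 ranging from 7.64 to 7.97 between the KrasD12 samples alone. The phosphatidate phosphatase genes Lpin1 and Lpin3 stood at -0.16 and 0.12 deposited and at -0.27 and -0.21 after quantile normalization, where both were called lower, as was Mgll (-0.39), which lies near the dim level. The sign of the role's median turned with the scaling, from 0.12 on the deposited values to -0.15 after quantile normalization.

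Genes of uptake, binding and activation bring fatty acids into the cell and hold them as acyl-CoA. Dbi, the acyl-CoA-binding protein, stood at 8.63 and 8.48 in KrasD12 and at 10.25 and 10.24 in WT. It fell by 1.69 ± 0.08 (adjusted p = 0.000301), to 0.31 times the WT level, the largest fall among the 41 members on both scalings. Fabp5, a cytosolic fatty acid carrier, read 7.59 and 7.55 against 8.72 and 8.60 and fell by 1.09 ± 0.08 (adjusted p = 0.000637). In both genes the WT samples lay more than a log2 unit above the KrasD12 samples. Lpl, the lipoprotein lipase that frees fatty acids outside the cell, read 4.81 and 4.85 in KrasD12, under the dim level, and 5.87 and 5.60 in WT. It fell by 0.91 ± 0.11 (adjusted p = 0.00178) deposited and by 1.29 after quantile normalization. By the dim level used, its KrasD12 level cannot be told from background.

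The acyl-CoA synthetases trap fatty acids by joining them to CoA. Acsl5 read 8.27 and 8.10 in KrasD12 and 8.81 and 8.76 in WT and fell by 0.60 ± 0.08 (adjusted p = 0.00293). Acsl4, which prefers arachidonic acid, fell by 0.33 ± 0.08 (adjusted p = 0.0155). Fabp3, the heart-type carrier, stood at -0.18 ± 0.07 deposited (adjusted p = 0.0705) and -0.47 after quantile normalization (adjusted p = 0.00293), with its groups apart by 0.13. Cd36, the fatty acid translocase, and Fabp4, the adipocyte carrier, were below the dim level in both groups, at 3.44 to 3.66 and 4.96 to 5.09. Neither was called on both scalings, and both turned sign with the scaling, Cd36 from 0.17 deposited to -0.15 after quantile normalization and Fabp4 from 0.01 to -0.39.

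Macrophages and adipocytes also express Fabp5, Lpl, Cd36 and Fabp4, so their markers were read beside these genes. Of 8 macrophage markers 3 had a mean above the dim level, 1 rose (12.5%) and 2 fell (25%), against 22.4% and 11.5% of all genes. Lyz2, the lysozyme of macrophages, read 4.56 and 4.70 in KrasD12 and 6.01 and 6.20 in WT and fell by 1.48, and Csf1r fell by 0.43, both to KrasD12 levels under the dim level. Adgre1, under the dim level in both groups, rose by 0.63, or by 0.26 after quantile normalization. Cd68, Itgam and Marco differed by 0.71, 0.69 and 0.42 as deposited and were not called after quantile normalization, and 6 of the 8 differences were positive as deposited. The pan-leukocyte gene Ptprc lay between 4.04 and 4.29 in all 4 samples, under the dim level. The mean over the 8 markers was 4.85 and 4.87 in KrasD12 and 4.71 and 4.77 in WT, and their median difference turned from 0.32 as deposited to -0.06 after quantile normalization. Among 6 measured adipocyte markers Plin1, a droplet coat protein, rose by 0.89 and Adipoq fell by 0.40. Their differences after quantile normalization were 0.52 and -0.76. Adipoq lay at 3.66 to 4.22 and so under the dim level throughout. The mean over the list was 5.14 and 5.27 in KrasD12 against 5.03 and 5.07 in WT. The adipocyte list's median difference also turned, from 0.17 to -0.21. Alveolar type 2 cells make much fatty acid for surfactant. Of 6 of their markers 3 rose (Sftpc, Napsa and Sftpb, 50% against 22.4% of all genes) and 0 fell. The list's mean was 5.77 and 5.79 in the KrasD12 samples against 5.27 and 5.20. Its median difference was 0.55 as deposited and 0.17 after quantile normalization. Sftpc and Napsa had WT means under the dim level (4.345 and 4.925), and Sftpb read 5.25 in both WT samples. Abca3, the brightest of the 6, differed by 0.05 as deposited and -0.11 after quantile normalization. Of 5 general epithelium markers 0 were called, and their median difference turned from 0.175 to -0.21. Among 6 endothelium markers, 3 with a mean above the dim level, 0 were called. All 6 differences were positive as deposited, and their median turned from 0.31 to -0.07. The part of such cells in the results was not tested, and in bulk RNA fewer cells of a type and less RNA per cell cannot be told apart.

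Oxidation genes carry fatty acids into mitochondria and shorten them there. Acadm, the medium-chain acyl-CoA dehydrogenase, stood at 9.04 and 9.02 in KrasD12 and at 9.54 and 9.42 in WT and fell by 0.45 ± 0.07 (adjusted p = 0.00477). Hadha and Hadhb, the subunits of the mitochondrial trifunctional protein, fell by 0.41 ± 0.07 and 0.36 ± 0.07 (adjusted p = 0.00434 and 0.0088). The groups did not overlap in any of the 3. The carnitine palmitoyltransferase Cpt1a, the gate of fatty acid entry, read 10.47 and 10.50 in KrasD12 and 10.41 and 10.47 in WT, a difference of 0.05 ± 0.07 (adjusted p = 0.585). Cpt2, the matching enzyme of the inner membrane, differed by 0.44 ± 0.09 deposited (adjusted p = 0.0105) and 0.21 after quantile normalization (adjusted p = 0.116). The dehydrogenase genes Acadvl and Acadl stood at -0.21 and -0.19 (adjusted p = 0.0525 and 0.0597) and were called lower after quantile normalization alone. The median of the 7 genes was -0.21 deposited and -0.35 after quantile normalization.

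Hadha and Hadhb lie head to head on chromosome 5, and their windows share 228 bases. The Hadhb window is printed, with no NF-Y box and 4 GC boxes (GGGCGG or its reverse complement), because most of it also belongs to the window of Hadha and the 2 genes fell by similar amounts.
Hadhb (chr5:30155003-30155302, plus strand): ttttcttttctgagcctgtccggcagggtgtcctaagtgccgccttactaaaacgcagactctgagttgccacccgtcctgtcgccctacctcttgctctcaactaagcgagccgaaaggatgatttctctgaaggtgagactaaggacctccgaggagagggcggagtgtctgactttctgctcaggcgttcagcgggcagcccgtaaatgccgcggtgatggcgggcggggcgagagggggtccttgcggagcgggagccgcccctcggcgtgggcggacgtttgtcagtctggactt

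A window was found for 33 of the 41 members, not for Scd1, Scd2, Fads1, Fabp4, Fabp5, Lpl, Dgat1 and Dgat2. An NF-Y box on either strand was present for 9 of the 16 members with a window that fell (56.2%), for 8 of the other 17 (47.1%), for 41.7% of 15614 tested genes with a window and in 37.4% of all 32851 windows. The core of the sterol regulatory element, TCACNCCAC, was found for 0 of the 33 members, against 1.4% of tested genes and 1.24% of all windows. With so low a share, a count of 0 among 33 members says little. E-boxes (CACGTG) occurred for 1 of the 16 (6.25%) and 5 of the 17 (29.4%), against 9.5% of tested genes and 7.15% of windows, and GC boxes for 9 (56.2%) and 13 (76.5%), against 52.9% and 35.7%. NF-Y is a factor that often works beside SREBPs, and E-boxes are bound by basic helix-loop-helix proteins, SREBP-1 among them. These matches describe the letters of short windows, and a missing match says only that the letters are not there.

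**Figure D3:**
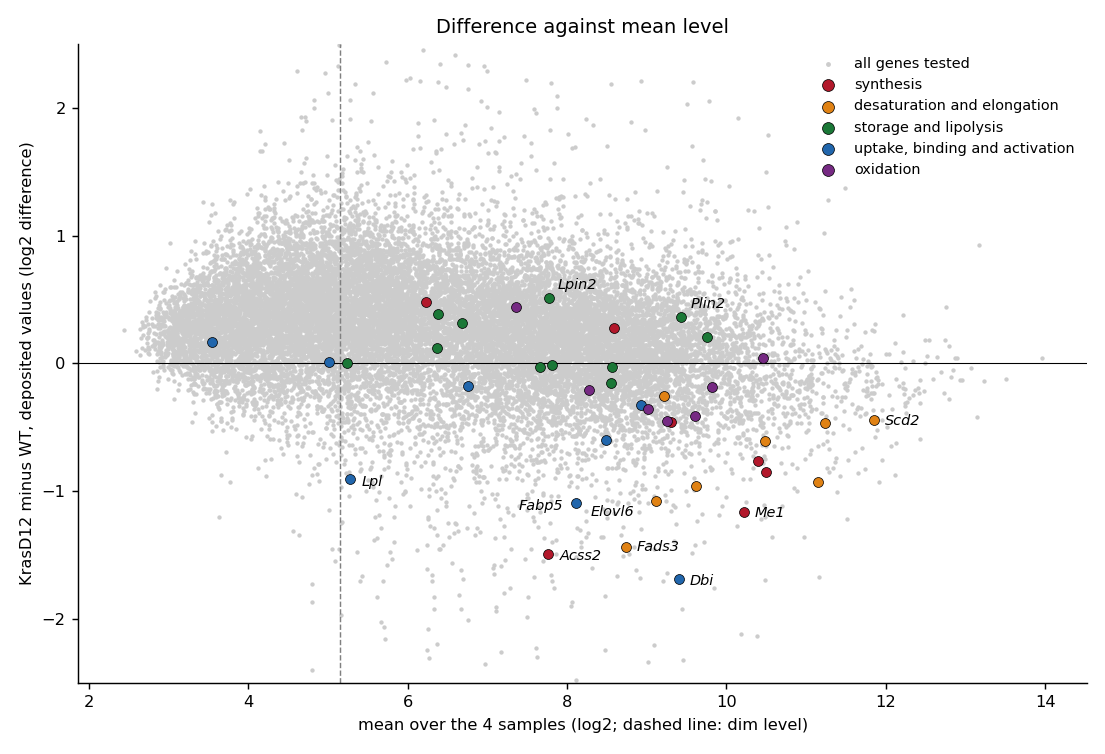
Difference between KrasD12 and WT on the deposited values (log2, vertical axis) against the mean over the 4 samples (log2, horizontal axis), with all 19938 genes in grey and the members coloured by role; 40 genes beyond ±2.5 are not drawn. The cloud shifts from above 0 at low means to just below 0 at high means, and around Dbi 0.46% of the genes within 0.5 of its mean had a lower difference.

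Lists of other genes of lipid metabolism held 111 measured genes, of which 22 fell (19.8%) and 18 rose (16.2%), against 11.5% and 22.4% of all genes. Among 5 genes of the SREBP pathway, Scap, the escort that carries SREBPs to the Golgi, rose by 0.98 ± 0.07 (KrasD12 10.59 and 10.67, WT 9.63 and 9.68, adjusted p = 0.000683). Srebf2, the sterol regulator, and Insig1, which holds SCAP back in the endoplasmic reticulum, fell by 0.50 each. Mbtps1, a protease that cuts SREBPs, rose by 0.22. Of 12 nuclear receptors and other regulators 2 rose (16.7%) and 0 fell. The coactivator Ppargc1a rose by 1.03 ± 0.07 from a WT mean of 5.01, under the dim level, and Ppard by 0.46. After quantile normalization these rises were 0.65 and 0.265. Pparg, the regulator of fat cells, differed by 0.16 deposited and -0.23 after quantile normalization.

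Of 15 other synthesis and elongation genes 5 fell (33.3%) and 1 rose (6.67%), against 11.5% and 22.4% of all genes. The citrate carrier Slc25a1, which brings citrate out of mitochondria for Acly, read 9.98 and 9.97 in KrasD12 and 10.71 and 10.69 in WT and fell by 0.73 ± 0.06 (adjusted p = 0.000996). Hsd17b12 and Hacd2, enzymes of the elongation cycle, fell by 0.71 ± 0.12 and 0.69 ± 0.09, and Tecr and Hacd3 of the same cycle fell by 0.61 and 0.39. Elovl4, an elongase of very long chains, was the one that rose (0.61 deposited and 0.28 after quantile normalization). For Hsd17b12, Hacd2, Tecr and Hacd3 both KrasD12 samples lay below both WT samples. Of 11 glycerolipid enzymes 3 fell (27.3%) and 2 rose (18.2%). Lclat1, an acyltransferase of lysophospholipids, fell by 1.08 ± 0.07 and Agpat5 by 0.63. The monoacylglycerol acyltransferase Mogat2 rose by 0.81 and Agpat2, whose enzyme makes phosphatidate, by 0.52. After quantile normalization the differences of these genes were -1.15, -0.89, 0.45 and 0.41.

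Of 20 lipid droplet genes outside the members 5 rose (25%) and 3 fell (15%), shares near those of all genes (22.4% and 11.5%). The droplet genes Cideb, Hsd17b11 and Plin4 rose by 1.06 ± 0.12, 0.92 ± 0.09 and 0.91 ± 0.16, while Cav1, the caveolin, fell by 1.09 ± 0.09. After quantile normalization the 4 differences were 0.71, 0.86, 0.57 and -1.205. Plin4 had the widest SE of these 4, with WT values of 5.63 and 6.09. Of 18 other uptake and activation genes 5 rose (27.8%, near the 22.4% of all genes) and 0 fell. Acsl6 rose by 1.26 ± 0.08 from WT values just under the dim level (5.11 and 5.15), the fatty acid transporter Slc27a1 by 0.85 ± 0.07 and Gpihbp1, the anchor of lipoprotein lipase, by 0.81 ± 0.10. After quantile normalization these rises were 0.89, 0.63 and 0.46.

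In the remaining oxidation lists, 4 of 17 mitochondrial genes fell (23.5%) and 1 rose (5.88%), and 5 of 13 peroxisomal genes fell (38.5%) and 0 rose. Over all genes 11.5% fell and 22.4% rose. Decr1, which handles unsaturated chains, fell by 0.63 ± 0.07 and the thiolase Acaa2 by 0.61 ± 0.07, next to a rise of 0.46 for Cpt1c, a relative of Cpt1a known from neurons. The peroxisomal thiolase Acaa1b fell by 0.59 and the transporter Abcd3 by 0.42.

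**Figure D4:**
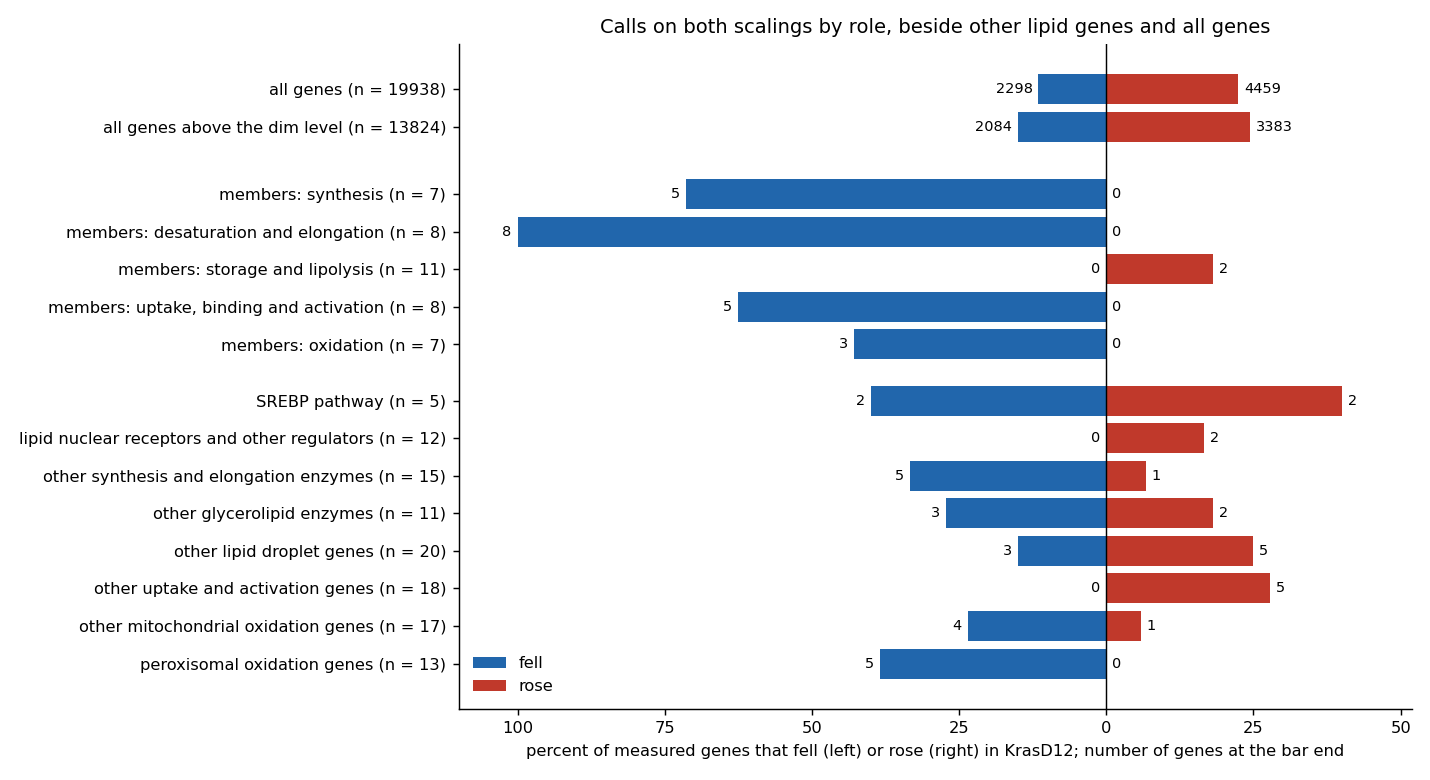
Percent of measured genes that fell (blue, left) or rose (red, right) in KrasD12 on both scalings, for all genes, for each role of the members and for lists of other lipid genes, with the number of genes at the end of each bar. The 8 desaturation and elongation genes all fell. The storage role is the only one of the 5 with a rise, but its share (2 of 11, 18.2%) is under the 22.4% of all genes.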

How the data were processed

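RNA of 4 samples was measured on mouse Affymetrix gene arrays. The deposited table holds 28944 rows of log2 values, with 2 decimals, whose scale was read from the values. The Transcriptome Analysis Console is named in the submitters' processing notes, but no version, background correction or normalization is stated. The platform annotation pairs 21789 rows with 1 symbol, and 21698 of these were updated through the GRCm38.p6 gene table. Each gene was represented by its brightest row on average. R 4.3.3 with limma 3.58.1 (two-sided test, lmFit then eBayes, group as the only term, Benjamini-Hochberg over 19938 genes) was run as deposited and on quantile-normalized rows, and a call needed an adjusted p under 0.05 in 1 direction on both. The steps were tested on simulated data. The 4 arrays leave 2 residual degrees of freedom, and their number limits the precision. The members and lists were chosen with earlier results of these data known. All members are named, those called at 0.5 or more with every sample's value, and of each other lipid list up to 3 called genes with the largest differences. Mbtps1, Tecr, Hacd3, Elovl4, Scd3, Scd4, Pparg, Agpat2, Plin4 and the marker genes were added as examples with their values in view. Alternatives were other scalings, the replicate letter as a block, a filter on dim genes, eBayes options (trend, robust), averaging a gene's rows, a 2-fold size and each sample left out. Motifs were searched with Python 3.11.15 and pandas 2.3.3, and plots drawn with matplotlib 3.10.9. A check of the targeted gene and 1 promoter sequence are not reported here.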

Additional observations from a re-analysis of the deposited data

How the results depend on the processing

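Against 21 members that fell and 2 that rose, the deposited values alone gave 8 rises, median centring, which lowered every difference by 0.345, gave 0 rises and 32 falls, eBayes with trend gave 4 rises, and a 2-fold size left 0 rises and 6 falls. Quantile normalization alone gave 28 falls and 2 rises, and cyclic loess 27 and 2. The counts over all 19938 genes moved as well. Their falls went from 2298 to 4861 under quantile normalization alone, 4933 under cyclic loess and 6657 under centring. Their rises went from 4459 to 9991 on the deposited values alone, 3574 under centring and 4874 with trend. The member counts of each scaling are thus to be read beside these. Leaving out 1 sample in turn gave 0 rises in each case and 0 to 16 falls, with 0 called genes of all 19938 when a WT sample was left out, which leaves 1 sample in an arm, assumed to vary like the other group, and 1 residual degree of freedom. The replicate block gave 1 rise and 20 falls, without Plin2 and Elovl1. The labels do not say whether the letters A and B stand for anything shared between the groups. Deviations of A from B correlated by 0.0132 between the groups over all genes, a value that would not reveal an effect on few genes. All 23 called members kept their sign under every alternative. Centring moved 12 of them over 1.5 times, Plin2 the most, and quantile normalization and cyclic loess each moved 2, Scd2 and Lpin2. Lpin3 turned from 0.12 to -0.21, -0.23 and -0.22 and Fabp4 from 0.01 to -0.39, -0.34 and -0.40 under quantile normalization, centring and cyclic loess, and Cpt1a from 0.05 to -0.30 under centring. Among members not called, Cd36 turned from 0.17 to -0.15, -0.18 and -0.14 under the same 3 scalings, and Srebf1, Plin3 and Lipe turned to -0.07, -0.14 and -0.03 under centring, each without passing the threshold there. The cause was not tested. The filter on dim genes, eBayes with robust and the mean of a gene's rows gave 21 to 23 falls and 2 rises. 2 rows were present for Me1, Fabp5, Fabp3, Hadhb and Acaca, and the differences of each pair lay within 0.1 of each other. Of 41 members, 38 lay above the dim level in both groups, and Lpl, Cd36 and Fabp4 are limited by background.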
